A study of Mus musculus with 20 samples.

Results

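The enzymes that break down tyrosine and cysteine were followed across 7 clonal lines of mouse embryonic fibroblasts. The members are 10 genes: Tat, Hpd, Hgd, Gstz1 and Fah of the tyrosine route, and Cbs, Cth, Cdo1, Csad and Got1 of the cysteine route. They were taken as named enzymes with every probe set that the platform annotation gives them, which came to 12 probe sets of 45037 that are not controls, and to 10 genes of 18193. The set was selected on the measured class difference of Fah and of Cdo1, the intensity in preadipose against non-adipogenic lines, so for all members that difference is described here and not tested. Differences among lines of 1 class were not used for the choice and are tested.

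Total RNA was measured on 20 arrays of a 3′ oligonucleotide type, with 1 biotin-labelled sample each. The preadipose class, lines able to become fat cells, held Swiss 2, 8 and 9 with 3 arrays each and Swiss 19 with 2. The non-adipogenic class held Swiss 3, 5 and 22 with 3 arrays each. A line is also called by its number alone, so that line 2 is Swiss 2. Every line is a single clone of the immortalized Swiss 3T3 fibroblasts. All were dividing in DMEM with 10% bovine serum, which does not induce differentiation, and none had reached growth arrest at harvest. A class difference is therefore a difference between 4 clones and 3 other clones. The labels do not state separate cultures for the arrays of 1 line. P-values over arrays therefore reflect only the spread between arrays, which may be technical. In RNA pooled from a culture, a change in every cell and a change in the share of cells with the transcript cannot be told apart.

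Tyrosine is broken down in a chain of steps. Tat removes the amino group, Hpd makes homogentisate, Hgd opens its ring, Gstz1 isomerizes the product, and Fah splits it into fumarate and acetoacetate. The chain is best known in liver and kidney, and inherited loss of FAH in humans causes tyrosinemia. Cysteine is made from homocysteine by Cbs and Cth, the transsulfuration pair. Cdo1 oxidizes cysteine to cysteine sulfinate, which Csad leads towards taurine and Got1, the cytosolic aspartate aminotransferase, towards pyruvate and sulfite.

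Promoter windows of RefSeq (GRCm38.p6, 250 bases before to 50 after a gene's start) were read for 8 of the 10 genes, in 10 windows. None was read for Cth or Cdo1, and the search for member windows did not cover every chromosome. The windows of Fah, the last enzyme of the tyrosine chain and the one with the brighter signal in preadipose lines, and of Hgd, which was at or near background, are shown to set a G- and C-rich start beside one that is not. Capitals mark GGGCGG, the core of the GC box, searched on both strands. The Fah window lies at chr7:84605893-84606192 on the minus strand and the Hgd window at chr16:37579903-37580202 on the plus strand, and both are written 5′ to 3′ on the strand of the gene.

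Fah: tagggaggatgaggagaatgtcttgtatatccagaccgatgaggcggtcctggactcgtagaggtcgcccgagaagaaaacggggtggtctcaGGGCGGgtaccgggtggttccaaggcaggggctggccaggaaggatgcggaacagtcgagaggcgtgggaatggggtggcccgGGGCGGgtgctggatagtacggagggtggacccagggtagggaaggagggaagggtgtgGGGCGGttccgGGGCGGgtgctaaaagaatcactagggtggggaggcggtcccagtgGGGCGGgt

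Hgd: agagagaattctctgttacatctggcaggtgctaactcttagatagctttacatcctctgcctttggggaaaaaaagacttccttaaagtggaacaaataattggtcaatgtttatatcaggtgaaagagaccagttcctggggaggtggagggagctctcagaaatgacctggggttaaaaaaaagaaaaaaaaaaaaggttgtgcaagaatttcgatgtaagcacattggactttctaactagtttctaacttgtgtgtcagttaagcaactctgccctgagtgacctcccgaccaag

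The Fah window held 5 copies of the motif, 19 CpG dinucleotides and 64.3% G and C. Its counterpart for Hgd held 0 copies, 2 CpG and 41% G and C. Over all 32851 windows of the same length the medians were 7 CpG and 52.7% G and C. At least 1 copy of GGGCGG stood in 6 of the 10 member windows, and in 35.7% of all windows. The core TGATGNAA of the amino acid response element, searched on both strands, stood in 1 of the 10 member windows, that of Got1, and in 3.97% of all windows. The pair does not stand for the other members: Cbs, which was dim, had a window with 66.7% G and C, 22 CpG and 2 copies of GGGCGG, and Got1, above background in all lines, had 0 copies. A match is a run of letters and not a shown binding site.

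Values are scaled intensity, meaning that each array's deposited intensity was scaled linearly to a trimmed mean of 500, and levels of different probe sets cannot be compared with each other. A line was above background when its mean exceeded the 95th percentile of 27 bacterial control probe sets for which no target was added, which lay between 76.5 and 143.5 in the 7 lines. Of the 12 member probe sets, 7 were above background in all lines: those of Hpd, Gstz1, Fah, Cdo1, Csad, Got1 and Cth. Another 3 were above it in some lines, and 2 in none. Over all probe sets, 42.9% were above background in all lines and 75.1% in at least 1. The deposited arrays were on unequal scales, with mean intensities that spanned 5.97-fold. They also fell into 11 arrays with dim and 9 with bright hybridization spikes, with a gap of 1.61-fold between the sets. Every array of lines 2, 8 and 9 and 2 of line 3 were dim, and every array of lines 19, 5 and 22 and 1 of line 3 were bright. The labels call neither set a batch.

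All 12 fibroblast markers tested, collagens and Pdgfra among them, were above background in every line. Pdgfra passed the class fit as lower in preadipose lines, the only 1 of the 12 that passed. The markers had summed line levels of 374600 to 458400 in preadipose and 340000 to 383700 in non-adipogenic lines. Of 12 hepatocyte markers measured, 1 was above background in all lines, and Alb, Fgb and Ahsg in none. The hepatocyte sum ran over 732.5 to 1157 in preadipose lines and 815.8 to 1084 in non-adipogenic lines. Of 8 proximal tubule markers, 3 were above background in all lines and Umod in none. That sum ran over 1041 to 1547 in preadipose lines and 1145 to 1504 in non-adipogenic lines, so both sums overlapped between the classes. Sums of muscle markers did not overlap, at 702.5 to 909 in preadipose and 579 to 603.5 in non-adipogenic lines, nor did those of neural markers, at 931 to 1141 in preadipose and 568 to 738 in non-adipogenic lines. Of the muscle markers Des and Ckm were above background in all 7 lines, Actc1 in 6, and Myog and Myh3 in none. Of the neural ones Sox10 was above it in all 7 lines, Tubb3 and Gfap in 6, and Snap25 in none. No muscle or neural marker passed the class fit, and the sums include markers below background. The part of such cells in the results was not tested. Of 6 adipocyte markers measured, 2 were above background in all lines, Lep and Cidec in none, and Adipoq in 1.

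Fah stood apart among the tyrosine enzymes. Its probe set 1417220_at read 3698, 3719 and 3565 in line 2, 2470, 2573 and 2827 in line 8, 2677, 2254 and 2666 in line 9, and 1781 and 2200 in line 19. In the non-adipogenic lines it read 457, 527 and 628 in line 3, 329, 458 and 489 in line 5, and 485, 520 and 412.5 in line 22. The dimmest of the 11 preadipose arrays, at 1781, was brighter than the brightest of the 9 non-adipogenic arrays, at 628. Line means averaged 2702 ± 698 in the preadipose class (SD, n = 4 lines) and 478 ± 56.1 in the non-adipogenic class (SD, n = 3 lines), a fold of 5.65 higher in preadipose lines. On the log2 scale, with 32 added to each intensity and the arrays quantile-normalized, the difference was 1.66 ± 0.16 (SE). The added 32 shrinks log2 differences of dim probe sets, so the log2 difference is smaller than the fold of scaled intensity. The log2 difference was 1.79 among the dim arrays and 1.27 among the bright ones. Swiss 3 is the only non-adipogenic line among the dim arrays, and Swiss 19 the only preadipose line among the bright ones.

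The preadipose lines were not alike in Fah. The order of line means was Swiss 2 (3661 ± 83.6), Swiss 8 (2623 ± 184), Swiss 9 (2532 ± 241) and Swiss 19 (1991 ± 296, n = 2 arrays, the others n = 3). A limma F test over these 4 lines, adjusted over all 45037 probe sets by the Benjamini-Hochberg method, gave an adjusted p of 0.000162. By that test 15.3% of all probe sets differed among preadipose lines, and the range of Fah line means, 0.78 on the log2 scale, was wider than that of 97.8% of probe sets. All 3 pairs that passed included Swiss 2. Fah was lower in Swiss 8 than in Swiss 2 by a log2 difference of -0.45 ± 0.09 (SE), with a limma adjusted p of 0.00653. It was likewise lower in Swiss 9 than in Swiss 2 (-0.51 ± 0.09, limma adjusted p = 0.00134) and in Swiss 19 than in Swiss 2 (-0.78 ± 0.10, limma adjusted p = 5.14e-05). The neighbours Swiss 9 and Swiss 8 did not pass (limma adjusted p = 0.867), nor did Swiss 19 against Swiss 9 (0.147) or against Swiss 8 (0.0529). Among the dim arrays alone, which hold Swiss 2, Swiss 8 and Swiss 9, the F test of Fah gave a limma adjusted p of 0.0112. Swiss 19 lies wholly among the bright arrays, so for this line brightness and line cannot be told apart.

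In the non-adipogenic class Fah line means lay close together, at 537 ± 85.8 in line 3, 425 ± 84.6 in line 5 and 472 ± 54.7 in line 22 (SD, n = 3 arrays each). The F test over these 3 lines did not pass as fitted here (limma adjusted p = 0.766), nor did any of the 3 pairs. With arrays centred on their medians or not normalized, the F test passed (limma adjusted p = 0.00792 and 0.000622). In those fits 24130 and 22910 of all 45037 probe sets passed it. All these lines remained above background.

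**Figure D1:**
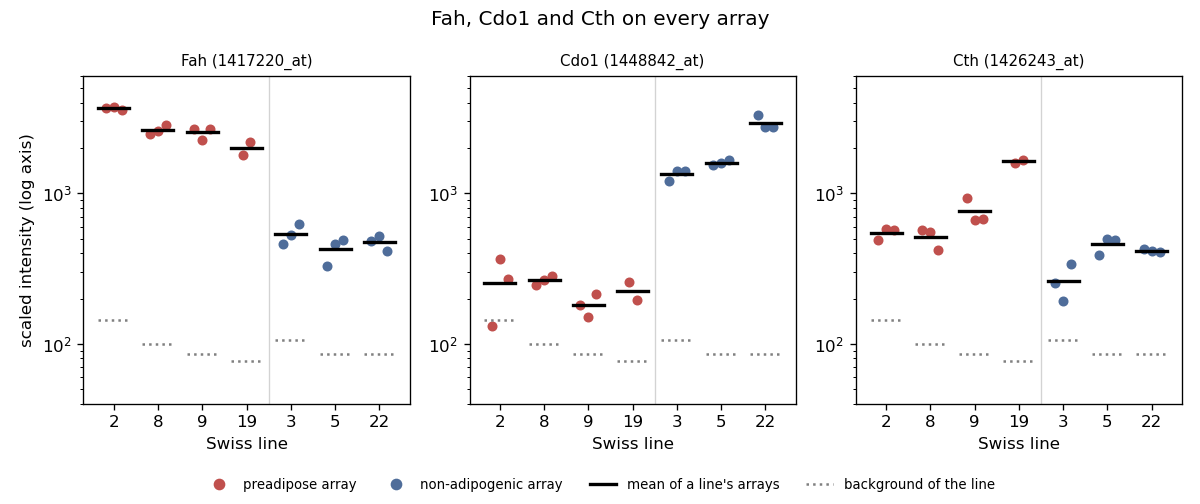
Scaled intensity of Fah, Cdo1 and Cth by line, with 1 point for each array and a bar at the line mean, preadipose lines on the left and non-adipogenic lines on the right, on a log axis, with the background of each line dotted. Fah is higher in all 11 preadipose arrays, Cdo1 is lower in all of them, and Cth is highest in Swiss 19.

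The upstream tyrosine enzymes showed no such split. Tat (1451557_at), which starts the chain, lay near background, with line means of 60.7 to 100.7 in preadipose lines and 42.4 to 55.0 in non-adipogenic lines. Only the Swiss 19 mean exceeded background, and its 2 arrays read 171 and 30.2. Line means of Tat did not overlap, but its arrays did. Hpd (1424618_at) averaged 197 ± 68.2 in preadipose and 170 ± 47.7 in non-adipogenic lines, with a log2 difference of 0.05 ± 0.08 (SE). Single Hpd arrays ran over 87.4 to 378.5 in preadipose lines and 44.7 to 406 in non-adipogenic lines, so the classes overlapped throughout.

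Hgd, the ring-opening enzyme, had a probe set (1452986_at) above background only in Swiss 19, at 93.1 ± 36.5 (SD, n = 2 arrays), and Swiss 3, at 107 ± 73.3 (SD, n = 3 arrays). Its mean in Swiss 2, 143 ± 129 (SD, n = 3 arrays), was higher but rested on 1 array at 286 and was not above that line's own background. A further Hgd probe set (1458049_at) was above background in no line. Gstz1 (1427552_a_at), just upstream of Fah, was measured in every line and averaged 430 ± 88.6 in preadipose and 553 ± 117.5 in non-adipogenic lines. The log2 difference of Gstz1 was -0.18 ± 0.10 (SE), opposite in sign to that of Fah and with overlapping line means. None of Tat, Hpd, Hgd and Gstz1 passed an F test within either class as fitted here. With arrays centred on their medians, or not normalized, Gstz1 passed in both classes. Tat and Hgd passed in some of these fits, and Hpd in none. In the same fits 28750 and 27920 of all 45037 probe sets passed among preadipose lines, and 24130 and 22910 among non-adipogenic lines.

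Cdo1, the cysteine dioxygenase, showed the reverse of Fah. Its probe set 1448842_at read 131, 366 and 269 in line 2, 245, 264 and 284 in line 8, 181, 152 and 214 in line 9, and 256 and 196 in line 19. Among non-adipogenic lines it read 1208, 1408 and 1402 in line 3, 1534, 1583 and 1663 in line 5, and 3292, 2757 and 2748 in line 22. The brightest preadipose array, at 366, was dimmer than the dimmest non-adipogenic array, at 1208. Class means over lines were 232 ± 37.0 in preadipose lines (SD, n = 4) and 1955 ± 856 in non-adipogenic lines (SD, n = 3), a fold of 8.43 lower in preadipose lines. The log2 difference was -1.68 ± 0.18 (SE), with -1.34 among the dim arrays and -1.7 among the bright ones. With arrays scaled linearly before the 32 was added, in place of quantile normalization, it was -2.87. Swiss 3 alone stands for its class among the dim arrays, and Swiss 19 alone among the bright ones. All 4 preadipose lines were still above background.

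Within the classes the pattern was turned round as well. The non-adipogenic lines differed in Cdo1 (limma F test, adjusted p = 1.79e-05, against 11.1% of all probe sets that passed), with means of 1339 ± 114 in line 3, 1593 ± 65.4 in line 5 and 2933 ± 311 in line 22 (SD, n = 3 arrays each). Swiss 22 was 2.19-fold higher than Swiss 3 (log2 difference 0.82 ± 0.10 SE, limma adjusted p = 1.46e-05). It was 1.84-fold higher than Swiss 5 (0.67 ± 0.10, limma adjusted p = 0.00164), in a pair where 0.799% of all probe sets passed. Swiss 5 and Swiss 3 did not pass (limma adjusted p = 0.44). Their line means differ by 1.19-fold. The 4 preadipose lines, at 182 ± 31.0 to 264.5 ± 19.2, did not differ in Cdo1 beyond the spread between arrays by the F test (limma adjusted p = 0.74). Without normalization between arrays that test passed (limma adjusted p = 0.000814), as it did for 27920 of all 45037 probe sets. Within the bright arrays, which hold all of Swiss 5 and Swiss 22 and 1 array of Swiss 3, the F test of Cdo1 gave a limma adjusted p of 0.0031.

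Cth, the enzyme that releases cysteine from cystathionine, was the only member that passed the F test in both classes as fitted here. Its probe set 1426243_at read 487, 575 and 570 in line 2, 570, 551 and 422 in line 8, 936, 665 and 679 in line 9, and 1596 and 1659 in line 19. It read 252, 194 and 338 in line 3, 390, 498 and 493 in line 5, and 424, 411 and 405 in line 22. Both Swiss 19 arrays were brighter than every other array of the study, and all 3 Swiss 3 arrays were dimmer than every other array. The lowest preadipose array, at 422, lay within the non-adipogenic range, so arrays overlapped between classes while line means did not.

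Among preadipose lines Cth gave a limma adjusted p of 5.76e-06 in the F test. Its log2 range of 1.03 was wider than that of 99.1% of all probe sets, dim ones included. Swiss 19 averaged 1628 ± 44.6 (SD, n = 2 arrays), against 760 ± 153 in line 9, 514 ± 80.7 in line 8 and 544 ± 49.6 in line 2 (SD, n = 3 arrays each). The log2 difference of Swiss 19 was 1.03 ± 0.10 (SE) over Swiss 8, with a limma adjusted p of 3.25e-06. It was 0.99 ± 0.10 over Swiss 2 (limma adjusted p = 4.3e-06) and 0.72 ± 0.10 over Swiss 9 (limma adjusted p = 0.000181). Swiss 9 lay above Swiss 8 and Swiss 2, but neither pair passed (limma adjusted p = 0.0812 and 0.079). Among the dim arrays, without Swiss 19, the F test of Cth did not pass (limma adjusted p = 0.156), and brightness and line cannot be told apart for Swiss 19.

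In the non-adipogenic class Cth gave a limma adjusted p of 0.00838 in the F test, with 460 ± 60.8 in line 5 and 413 ± 9.77 in line 22, against 261 ± 72.7 in line 3 (SD, n = 3 arrays each). Swiss 5 was 1.76-fold higher than Swiss 3 (limma adjusted p = 0.00462) and Swiss 22 was 1.58-fold higher than Swiss 3 (limma adjusted p = 0.0235). Swiss 22 and Swiss 5 did not pass (limma adjusted p = 0.951). Without replicate 2 of Swiss 3, its dimmest array, the F test gave a limma adjusted p of 0.0698, and within the bright arrays, with 1 array of Swiss 3, it gave 0.22. Cth averaged 861.5 ± 522.5 in preadipose lines (SD, n = 4) and 378 ± 104 in non-adipogenic lines (SD, n = 3), 2.28-fold higher in preadipose lines. The log2 class difference was 0.59 ± 0.25 (SE), and 0.36 without Swiss 19. It was 0.70 among the dim arrays, where Swiss 3 is the only non-adipogenic line. Among the bright arrays, where Swiss 19 is the only preadipose line, it was 1.21.

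Cbs, the enzyme before Cth, was dim. Its probe set 1423844_s_at was above background in all lines but Swiss 2 and averaged 149.9 ± 45.6 in preadipose and 203 ± 10.6 in non-adipogenic lines, with a log2 difference of -0.14 ± 0.08 (SE). The arrays of a line were far apart: those of Swiss 8 read 13.6, 70.0 and 239. The other Cbs probe set (1425623_a_at) was above background in no line.

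The enzymes downstream of Cdo1 were well measured and close between the classes. Csad (1427981_a_at), the decarboxylase on the way to taurine, averaged 409 ± 108 in preadipose and 512 ± 78.6 in non-adipogenic lines, a log2 difference of -0.15 ± 0.10 (SE). Got1 (1450970_at) averaged 1573 ± 224 in preadipose and 1863 ± 338 in non-adipogenic lines, a log2 difference of -0.18 ± 0.11 (SE). Line means of Csad and Got1 overlapped between the classes, and neither passed an F test within a class as fitted here. Got1 passed among preadipose lines without replicate 3 of Swiss 2 (limma adjusted p = 0.0367), and among non-adipogenic lines without that array (0.0494) or without replicate 1 of Swiss 2 (0.0428). With arrays centred on their medians, or not normalized, both genes passed in both classes. In those fits 28750 and 27920 of all 45037 probe sets passed among preadipose lines, and 24130 and 22910 among non-adipogenic lines. As fitted here, the limma adjusted p of Csad and Got1 was 0.14 and 0.249 among preadipose lines, and 0.674 and 0.128 among non-adipogenic lines.

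**Figure D2:**
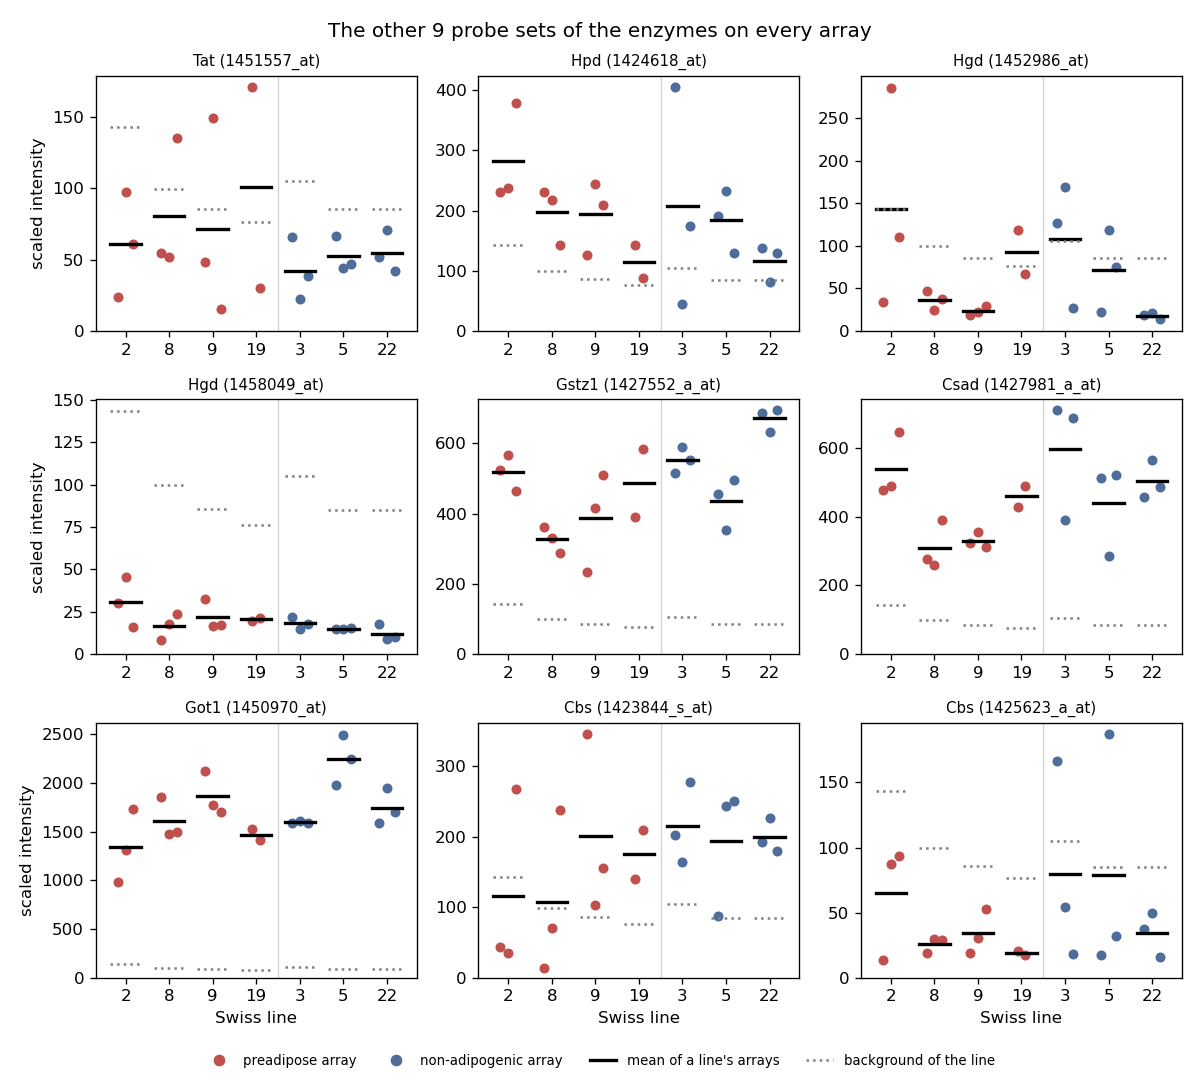
Scaled intensity of the other member probe sets by line, with 1 point for each array, a bar at each line mean and the line's background level marked, preadipose lines left of non-adipogenic lines, each panel with its own axis. Gstz1, Csad and Got1 are above background in all 7 lines, while 1 Hgd and 1 Cbs probe set have no line mean above it.

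Over the 12 member probe sets, the class fit placed 1 higher and 1 lower past its threshold, those of Fah and Cdo1, where 0.275% of all probe sets were higher and 0.544% lower, 0.819% in all. That contrast chose the members, and nothing is read from the counts. The classes shared no range of scaled line means for 4 of 12, against 10.7% of all probe sets: Fah, Cth and Tat were higher (5.2% of all probe sets) and Cdo1 lower (5.53% of all). The median log2 class difference was -0.03 over the 12, and 0.01 over all probe sets. Within the preadipose class 2 of 12 passed the F test, Fah and Cth, and within the non-adipogenic class 2 of 12, Cdo1 and Cth. These shares are close to the 15.3% and 11.1% of all probe sets, and to the 20.2% and 14.7% of those above background in at least 1 line. Fah thus varied among the lines where it was high and Cdo1 among the lines where it was high. Whether the spread of either differs between the classes was not tested.

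Of 108 combinations of a member probe set and a pair of lines of 1 class, 10 passed: 5 for Cth, 3 for Fah and 2 for Cdo1. The share of all probe sets that passed in the 9 pairs ran over 0.799% in Swiss 22 against Swiss 5 to 10.4% in Swiss 5 against Swiss 3. For the pairs with Fah calls it was 5.89% in Swiss 8 against Swiss 2, 8.77% in Swiss 9 against Swiss 2 and 8.85% in Swiss 19 against Swiss 2. For the other pairs with Cth or Cdo1 calls it was 7.22% in Swiss 19 against Swiss 8, 6.42% in Swiss 19 against Swiss 9 and 9.11% in Swiss 22 against Swiss 3. In Swiss 9 against Swiss 8, where no member passed, it was 2.93%.

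**Figure D3:**
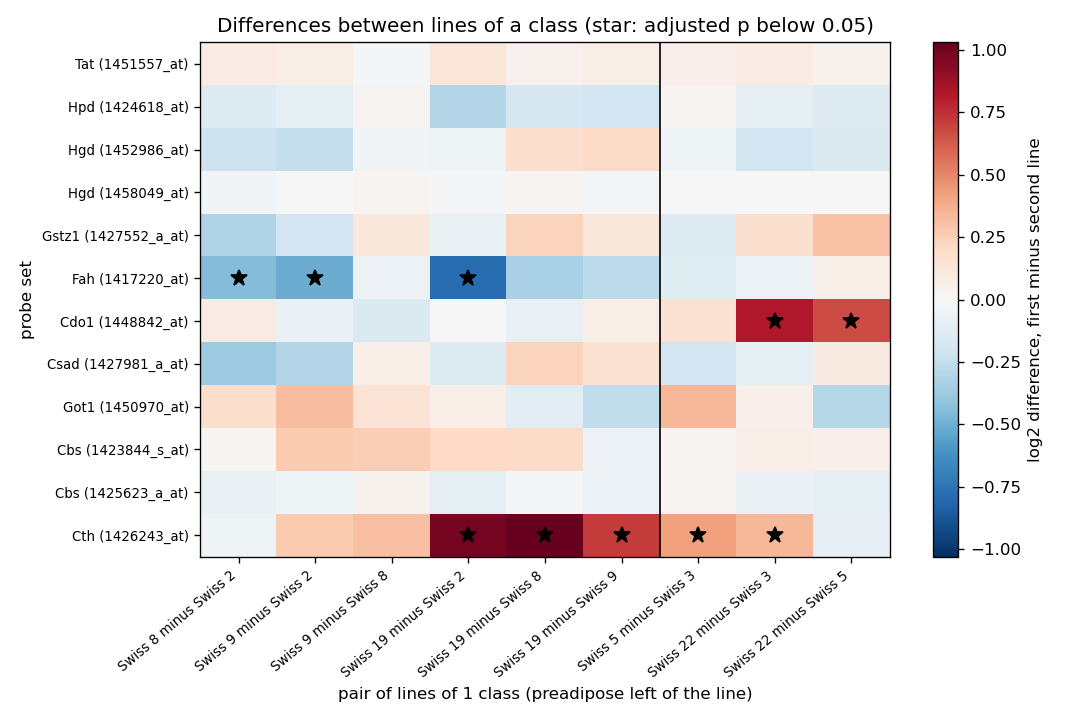
Colour map of the log2 difference of each of the 12 member probe sets (rows) in each of the 9 pairs of lines of 1 class (columns), the first-named line minus the second, red where the first line is higher and blue where it is lower. Stars mark a limma adjusted p below 0.05, and the 10 stars lie in the rows of Fah, Cth and Cdo1.

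Other genes of the same chemistry were read from lists, with 1 probe set per gene. In the list of phenylalanine and tyrosine genes, such as those of biopterin supply and aromatic amino acid transport, 0 of 21 measured genes passed in the class fit in either direction, beside 0.407% higher and 0.781% lower over all genes. An F test passed for 5 of 21 among preadipose and 5 of 21 among non-adipogenic lines, beside 21.1% and 15.2% of all genes. Slc7a5, a carrier of large neutral amino acids that include tyrosine, averaged 3437 in Swiss 19, against 1663, 1395 and 1675 in lines 2, 8 and 9 (limma F test, adjusted p = 0.000175). Its non-adipogenic line means were 491 in line 3, 1236 in line 5 and 955 in line 22 (limma F test, adjusted p = 0.000356). Swiss 19 was the brightest and Swiss 3 the dimmest line for Slc7a5, as for Cth. Gchfr, the feedback regulator of biopterin synthesis, averaged 1225 in line 3, 664.5 in line 5 and 566 in line 22 (limma F test, adjusted p = 0.000658).

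Among 19 measured genes of the methionine cycle and transsulfuration, which feed Cbs and Cth, 0 passed in the class fit. An F test passed for 9 among preadipose lines and 7 among non-adipogenic lines, 47.4% and 36.8% of the list. Over all genes the shares were 21.1% and 15.2%. Of the 19 genes, 15 were above background in all lines, against 10243 of 18193 over all genes. The nicotinamide methyltransferase Nnmt averaged 1877 in line 2, 894 in line 8, 634 in line 9 and 971 in line 19 (limma F test, adjusted p = 6.14e-05). The folate enzyme Mthfd1 averaged 799 in line 3, 1847 in line 5 and 1290 in line 22 (limma F test, adjusted p = 0.000187).

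The taurine, sulfide and sulfite list, part of which lies downstream of Cdo1 and Csad, held 1 higher and 1 lower gene of 15. Over all genes 0.407% were higher and 0.781% lower. Slc6a6, the taurine transporter, was higher in preadipose lines: 1437149_at had line means of 2384, 2126, 2486 and 2864 in lines 2, 8, 9 and 19, and 1296, 1427 and 1334 in lines 3, 5 and 22. The lowest preadipose array read 1879 and the highest non-adipogenic array 1656. The class means were 2465 ± 306 in preadipose lines (SD, n = 4) and 1352 ± 67.4 in non-adipogenic lines (SD, n = 3), a log2 difference of 0.67 ± 0.08 (SE) with a limma adjusted p of 0.0195. The lists were chosen with earlier results of these data known. The class p-values of Slc6a6, and of Papss2 below, may therefore not be free of that choice. All 4 Slc6a6 probe sets had higher line means in every preadipose line than in any non-adipogenic line, and 3 of the 4 passed. Of those that passed, 1 was above background in 4 of 7 lines and in no non-adipogenic line, and the probe set that did not pass was below it in Swiss 3.

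Papss2, which activates sulfate for transfer, was lower in preadipose lines. Its probe set 1434510_at had line means of 507, 412, 562 and 490 in lines 2, 8, 9 and 19, and 824, 1002 and 1119 in lines 3, 5 and 22. The class means were 493 ± 62.0 in preadipose lines (SD, n = 4) and 982 ± 148.5 in non-adipogenic lines (SD, n = 3), a log2 difference of -0.56 ± 0.08 (SE) with a limma adjusted p of 0.032. No line means overlapped, and 2 of its 4 probe sets passed while 1 lay at background in all lines. Both calls depended on which lines were used: each passed in 2 of 7 fits that left out 1 line, with a limma adjusted p of up to 0.0979 for Slc6a6 and 0.123 for Papss2. Within the dim arrays, which hold 1 non-adipogenic line, the log2 difference was 0.53 for Slc6a6 and -0.43 for Papss2. Within the bright arrays, which hold 1 preadipose line, it was 0.91 and -0.57. With 1 line in an arm these fits say little about the calls.

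Within the classes 1 of the 15 passed among preadipose lines and 2 of 15 among non-adipogenic lines. These were 6.67% and 13.3% of the list, beside 21.1% and 15.2% of all genes. Sqor, the mitochondrial enzyme that oxidizes sulfide, averaged 1810 in line 2, 1453 in line 8, 1178 in line 9 and 1630 in line 19 (limma F test, adjusted p = 0.00364), and 974 in line 3, 747 in line 5 and 671 in line 22 (0.0282). Ado, a dioxygenase that acts on cysteamine and so leads to hypotaurine by another way than Cdo1, averaged 500.5 in line 3, 682 in line 5 and 687 in line 22 (limma F test, adjusted p = 0.0437).

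Of 18 measured glutathione and cystine genes, 0 passed in the class fit, and 9 among preadipose and 6 among non-adipogenic lines passed an F test, 50% and 33.3% of the list beside 21.1% and 15.2% of all genes. The median log2 class difference of this list was 0.31, against 0.003 over all genes, the highest of the 5 lists. Cndp2, a peptidase that can split cysteinylglycine, averaged 3533 in line 2, 1969 in line 8, 1632 in line 9 and 1735 in line 19 (limma F test, adjusted p = 4.35e-05). The surface aminopeptidase Anpep was above background in 3 of 7 lines. Among preadipose lines its means were 250.2 in line 2, 24.5 in line 8, 340 in line 9 and 98.2 in line 19 (limma F test, adjusted p = 7.37e-05).

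Of 43 measured genes that break down other amino acids, 0 passed in the class fit, and 9 passed an F test in each class. That was 20.9% of the list in each class, beside 21.1% of all genes among preadipose and 15.2% among non-adipogenic lines. The branched-chain aminotransferase Bcat1 averaged 3187 in line 2, 4163 in line 8, 7032 in line 9 and 4509 in line 19 (limma F test, adjusted p = 1.4e-05). It averaged 1139 in line 3, 3099 in line 5 and 2689 in line 22 (limma F test, adjusted p = 4.85e-07). Gldc, the glycine decarboxylase, averaged 380 in line 2, 176 in line 8, 136 in line 9 and 68.5 in line 19 (limma F test, adjusted p = 0.00544), and was not above background in Swiss 19 or in any non-adipogenic line.

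**Figure D4:**
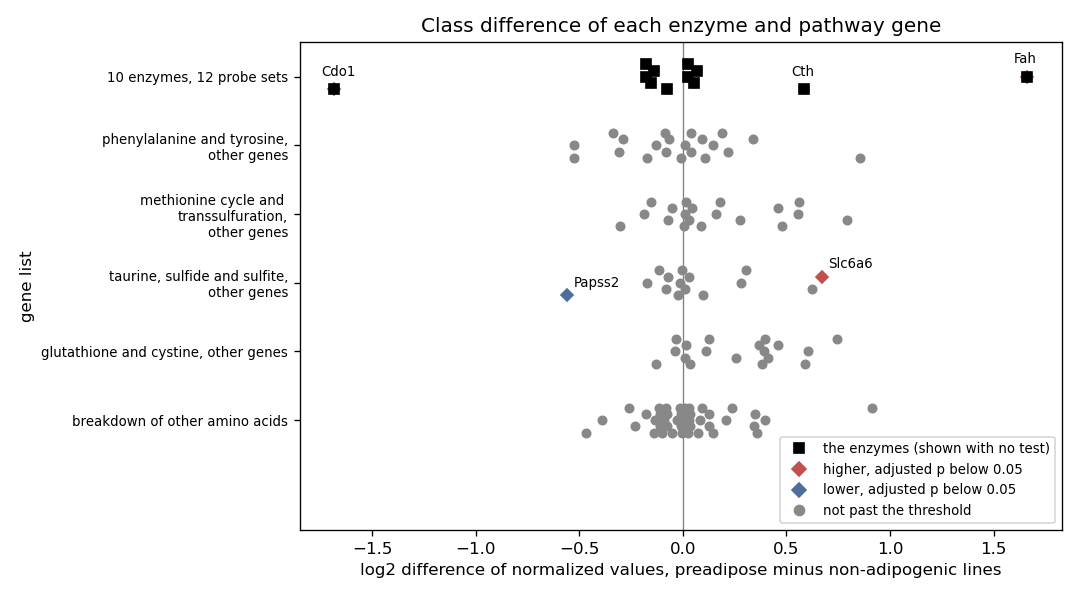
Log2 class difference, preadipose minus non-adipogenic, with 1 point for each member probe set or list gene. Black squares are the enzymes, shown with no test, and coloured diamonds are list genes with a limma adjusted p below 0.05, which are Slc6a6 (higher) and Papss2 (lower). The lists were chosen with earlier results of these data known.

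Likeness was measured as Pearson's r of the 7 normalized line means with those of Fah or Cdo1, over 13986 genes above background in at least 1 line. With 7 points that share their arrays, and a wide gap between the classes, r mostly follows that gap and is given with no p. The named genes closest to Fah were Fgfr1op2 (r = 0.99), Ddx47 (0.989), Gxylt2 (0.986), Cdc42ep3 (0.985) and Igfbp4 (0.982). Cdc42ep3, an effector of the small GTPase Cdc42, averaged 5388, 3827, 3504 and 3517 in lines 2, 8, 9 and 19, and 866, 997 and 1255 in lines 3, 5 and 22. It was highest in Swiss 2, as Fah and Gxylt2 were, while Fgfr1op2 and Ddx47 were highest in Swiss 8 and Igfbp4 in Swiss 9. The named genes closest to Cdo1 were Fip1l1 (0.99), Zfpm2 (0.988), Mcl1 (0.988), Tmem30a (0.987) and Man2a1 (0.987). Zfpm2, a zinc finger cofactor, averaged 366, 402, 315 and 370 in lines 2, 8, 9 and 19, and 645, 810 and 934 in lines 3, 5 and 22, highest in Swiss 22 as Cdo1 was.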

How the data were processed

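The deposited values were linear probe-set intensity values, 1 column for each of 20 arrays, in a table of 45101 probe sets with 64 controls. How the authors summarized and scaled them is not given in the sources used here. Gene names came from the platform annotation. The members and lists were chosen with earlier results of these data known. Values were taken as log2(intensity + 32) and quantile-normalized, because array medians on the log2 scale spanned 0.607 where 0.2 was allowed. The class difference was fitted on 7 line means with limma 3.58.1 in R 4.3.3 (lmFit, eBayes). Differences among lines of a class were fitted on all 20 arrays with 1 term per line, by moderated F tests and pairs. Benjamini-Hochberg adjustment ran over 45037 probe sets, within each pair for pairs, with a threshold of 0.05. Scaled intensity had 2% trimmed at each end. Named genes were all members. From each list they were up to 3 genes called between classes and up to 2 called within a class with the widest range of line means. For Fah and Cdo1 the 5 most like genes were named. The fits were tested on simulated data. The number of arrays limits the precision.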

Additional observations from a re-analysis of the deposited data

Results flagged for a closer look

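In 1 of 48 sets of 4 preadipose line means, scaled or log2, that were examined, a line stood far from the others. For Slc7a5 (1418326_at), Swiss 19 averaged 3437, against 1663, 1395 and 1675 in lines 2, 8 and 9, and the gap took 0.863 of the whole range, past the critical value of Dixon's test for 4 values. On the log2 scale used in the fits the gap took 0.798 of the range, which is not past that value. Chance puts about 1 in 20 groups past that value. Both Swiss 19 arrays are bright arrays.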

How the results depend on the processing

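Among the members, Slc6a6 and Papss2, whose signs were followed, no called class difference reversed. As reported, 369 probe sets passed the class fit (2 member probe sets), 6873 the F test among preadipose lines (2) and 4994 that among non-adipogenic lines (2), and 10 member pairs passed. With arrays centred on their medians, 3 probe sets passed the class fit by limma, all 3 lower (0 members, 1629 probe sets at an unadjusted p under 0.05), 28750 (7 members) and 24130 (8 members) the F tests, and 38 member pairs. With no normalization the values were 2 (0 members), 27920 (9 members) and 22910 (7 members), with a median class difference of -0.12 over all probe sets. With arrays scaled before the pseudocount they were 90, 4080 and 3097. Dropping probe sets above background in no line gave 665 in the class fit, and 1 probe set per gene gave 4212 and 2976 in the F tests. With arrays as the unit and line as a random block, 3645 passed the class fit, and 3390 with a replicate block added. Same-numbered arrays did not deviate together (r of -0.0263 to 0.0338 over 57 array pairs, 6 of 20 arrays closest to their own number), so the numbers do not pair the arrays, and with the replicate block 10 member pairs passed, as without it. Within the dim arrays, with 1 non-adipogenic line, 149 passed the class fit (1 member) and 2138 the preadipose F test (1 member). Within the bright arrays, with 1 preadipose line, limma called 0 in the class fit (0 members, 3459 probe sets at an unadjusted p under 0.05), and 1 member passed the non-adipogenic F test. Leaving out 1 array or 1 line gave 46 to 623 probe sets in the class fit, with 0 to 2 members. The lowest count came without Swiss 5 and the highest without Swiss 19. Leaving out 1 array gave 1 to 3 members in the non-adipogenic F test. The log2 class difference lay between 1.52 and 1.78 for Fah, and between -1.85 and -1.43 for Cdo1, over the 7 fits without 1 line. Over 12 other settings it ran more widely, over 1.194 to 2.401 for Fah and -2.867 to -1.245 for Cdo1. For Fah the lowest value came with no normalization and the highest with arrays scaled before the pseudocount. The cause of these changes was not tested. Papss2 did not pass with spike brightness as a block (limma adjusted p = 0.0715) or without replicate 1 of Swiss 2 (0.0507), and neither Slc6a6 nor Papss2 passed with other normalizations than the quantile one. With arrays centred, not normalized or scaled first, the log2 difference was 0.25, 0.12 and 0.85 for Slc6a6, and -0.88, -1.01 and -0.95 for Papss2. Signal over background limits Tat, Hgd and Cbs, whose values lay at or near background.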
